A study of Mus musculus with 36 samples.

Results

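A set of 8 genes of intermediate progenitors and of the neurogenic programme were followed through the ribosome fractions of the embryonic mouse cortex: Eomes, Neurog1, Neurog2, Insm1, Btg2, Neurod1, Gadd45g and Sstr2. They were taken by gene name from the 55487 genes of the deposited count table, and all 8 were found in it. Counts above 0 were present for 7 of them, and Neurod1 was listed at 0 in all 36 libraries. Radial glia of the dorsal cortex divide at the ventricle and give rise to intermediate progenitors, which divide again to make excitatory neurons. The proneural factor Neurog2 starts this step in the dorsal cortex, Eomes (Tbr2) marks the intermediate progenitors, and Insm1, Btg2, Gadd45g and Neurod1 accompany the exit from the progenitor state. How many ribosomes an mRNA carries depends on how often translation starts on it and on how long its coding region is.

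The cortices were from female embryos of stage E14.5, and each sample was a pool of 2 embryos of the same genotype. A cleared lysate was sampled as input and spun through a 15 to 50% sucrose gradient, from which a monosome and a polysome sample were sequenced. The LoF cross compared conditional heterozygotes (cHet), Emx1-Cre/+;Ddx3x lox/+, with Ddx3x lox/+ controls that lacked Cre. The T532M cross compared Emx1-Cre/+;Ddx3x-T532M lox/+ cHet with Emx1-Cre/+ controls. The cHet and control therefore differ in Cre in the LoF cross, and every embryo of the T532M cross carried it. Emx1-Cre acts in dorsal progenitors and their progeny, so other cells of the cortex kept their alleles. Ddx3x, on the X chromosome, encodes a helicase that unwinds mRNA for scanning ribosomes. There were 3 libraries for each of 12 groups. The labels do not name litters or days, so the p-values measure only the spread between these pools.

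Read pairs counted per library ranged from 36999365 to 57935512, and levels are given as CPM, read-pair counts scaled to library size with TMM. CPM is relative to the other RNAs of a library, so differences between fractions are relative and give no amounts of RNA. Ddx3x was at 62.8 to 118 CPM in LoF cHet input and 90.8 to 156 CPM in its controls. In monosomes it was at 178 to 255 CPM in LoF cHet and 281 to 344 CPM in LoF controls, without overlap. In the T532M cross Ddx3x was at 166 to 235 CPM in cHet input and 50.1 to 145 CPM in control input, and these counts do not tell the T532M allele from the other. None of these Ddx3x differences passed the test used below. Emx1, a defining marker of dorsal cortex, was detected in every input library, between 61.4 and 90.1 CPM. Ttr, the defining marker of choroid plexus, differed between pools. It was at 39.3 to 183 CPM in the input of 4 pools (LoF control 1 and 3, LoF cHet 1 and T532M cHet 1) and at most 2.25 CPM in the other 8.

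Because Ddx3x acts where ribosomes scan towards the start codon, the start sites of the 8 mRNAs are shown first, as 12 bases before the start codon, the start codon in capitals and 3 bases after it. They are from 1 GENCODE M21 transcript (GRCm38) for each gene, 5′ to 3′ on the mRNA strand.
Eomes: attcgctaaagcATGcag
Neurog1: gcacactgcaagATGcct
Neurog2: gagccgcgtaggATGttc
Insm1: caccgcgccaacATGccc
Btg2: tcagccaccggtATGagc
Neurod1: ggaagtggaaacATGacc
Gadd45g: gtggatcgcacaATGact
Sstr2: tggaaagcagccATGgag
An A or G stood 3 bases before the start codon in 8 of 8 members, as in 85.3% of the 13722 genes with a transcript model and a polysome against monosome value. Sstr2 was the 1 member that also had a G directly after the start codon, and 44.6% of genes had both features. An ATG lay upstream in the 5′ untranslated region of 3 members: Insm1 and Sstr2 had 2 each and Neurod1 had 1, and 52.6% of genes had at least 1. The 5′ untranslated regions ran from 67 bases in Btg2 to 371 bases in Sstr2, against a median of 184 bases over genes.

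Eomes, the T-box factor of intermediate progenitors, lies on chromosome 9, 118478212 to 118486132 on the plus strand, with 6 exons and a coding region of 2121 bases. Neurog2 (chromosome 3, 127633135 to 127635631, plus) and Neurog1 (chromosome 13, 56250478 to 56252163, minus) are proneural bHLH factors with coding regions of 789 and 732 bases. Insm1, a zinc finger factor of basal progenitors (chromosome 2, 146221921 to 146225020, plus), has a single exon, as has Neurog1, and 1563 coding bases. Btg2, an antiproliferative protein of progenitors dividing to make neurons, lies on chromosome 1, 134075170 to 134079120 (minus). Gadd45g, a growth arrest protein, lies on chromosome 13, 51846678 to 51848468 (plus). The coding regions of Btg2 and Gadd45g are short and nearly equal, at 474 and 477 bases. Sstr2, a somatostatin receptor with 1107 coding bases, lies on chromosome 11, 113619342 to 113626028 (plus).

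Neurod1, a bHLH factor that follows Neurog2, could not be measured from these counts. Its gene span (chromosome 2, 79452521 to 79456751, minus) lies wholly inside that of Cerkl (79330543 to 79456785) on the same strand, and read pairs were counted over whole gene spans. Of the genes placed wholly inside another gene span of the same strand, 6553 of 6553 were at 0 in every library, 415 of them protein-coding, against 14.4% of the other 20623 protein-coding genes. Cerkl itself had 9 to 141 read pairs per library. The zero of Neurod1 is therefore no level, and results below are for the other 7 members, all of which passed the filter on low counts in every fit.

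In control cortex the members parted into 3 with higher CPM in polysomes than in monosomes, 3 with lower CPM and 1 without a called difference. Eomes was 3.76-fold and 4.07-fold higher in polysomes in the LoF and T532M controls, and Insm1 and Neurog2 were higher by smaller factors. Btg2, Gadd45g and Sstr2 were lower, Btg2 the most. Neurog1 did not pass in either cross. The same 6 of 7 members passed in both crosses. Over all genes 81.2% passed in the LoF cross, 36.4% higher and 44.9% lower, and 79.9% passed in the T532M cross, 36% higher and 43.9% lower, so a call in this comparison was the usual case. The CPM of the groups did not overlap for 7 of 7 members in LoF and 6 of 7 in T532M controls, as for 84.4% and 82.8% of genes. The edgeR quasi-likelihood test with Benjamini-Hochberg adjustment over all genes was used here and throughout, at an adjusted p of 0.05, with each cross fitted on its 18 libraries.

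Eomes was at 240, 233 and 243 CPM in monosomes of LoF controls 1, 2 and 3 and at 974, 791 and 925 CPM in their polysomes. In the T532M controls it was at 231, 252 and 246 CPM in monosomes and at 1005, 1041 and 922 CPM in polysomes. Each polysome library was far above every monosome library, with log2 fold changes of 1.91 ± 0.12 (SE, n = 3 against 3, edgeR adjusted p = 3.19e-11) and 2.03 ± 0.16 (adjusted p = 1.46e-09). Among all genes these stood at the 84.2 and 85.0 percentile.

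Neurog2 was at 126, 132 and 126 CPM in LoF control monosomes and at 171, 172 and 173 CPM in polysomes, and its groups did not overlap. In T532M controls it was at 131, 154 and 134 CPM in monosomes and at 187, 201 and 188 CPM in polysomes. The log2 fold changes were 0.43 ± 0.09 (SE; edgeR adjusted p = 0.000242) and 0.46 ± 0.17 (adjusted p = 0.0173). The T532M call was lost without control 1 or control 3, at edgeR adjusted p = 0.0643 and 0.0802. Insm1 rose from 62.0, 66.5 and 65.3 CPM to 91.5, 94.6 and 106 CPM in LoF controls and from 67.9, 68.2 and 73.8 CPM to 122, 104 and 119 CPM in T532M controls. Its log2 fold changes were 0.59 ± 0.11 (edgeR adjusted p = 9.12e-05) and 0.72 ± 0.15 (adjusted p = 0.000269).

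Btg2 was at 127, 128 and 127 CPM in LoF control monosomes and at 35.0, 42.5 and 39.7 CPM in polysomes. In T532M controls it was at 108, 121 and 120 CPM and at 36.7, 47.5 and 38.1 CPM. Btg2 was thus lower in every polysome library, with log2 fold changes of -1.71 ± 0.12 (edgeR adjusted p = 1.38e-10) and -1.51 ± 0.11 (adjusted p = 4.88e-10). Gadd45g was at 46.9, 40.5 and 44.5 CPM in LoF control monosomes and 22.1, 25.2 and 22.4 CPM in polysomes, and at 39.6, 40.7 and 34.1 CPM and 19.7, 20.4 and 20.1 CPM in T532M controls. Its log2 fold changes were -0.92 ± 0.13 (edgeR adjusted p = 2.58e-06) and -0.93 ± 0.12 (adjusted p = 1.03e-06). Sstr2 was at 109, 93.3 and 110 CPM in LoF control monosomes and 63.7, 62.2 and 56.3 CPM in polysomes, and at 113, 109 and 114 CPM and 72.5, 62.5 and 70.5 CPM in T532M controls. The log2 fold changes of Sstr2 were -0.78 ± 0.10 (edgeR adjusted p = 5.8e-07) and -0.71 ± 0.12 (adjusted p = 3.66e-05).

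Neurog1 was at 9.59, 9.31 and 9.19 CPM in LoF control monosomes and at 7.93, 8.94 and 8.39 CPM in polysomes, a log2 fold change of -0.15 ± 0.13 (edgeR adjusted p = 0.282). In T532M controls it was at 8.68, 10.4 and 8.83 CPM in monosomes and 8.56, 10.7 and 8.17 CPM in polysomes, a difference of -0.02 ± 0.18 (adjusted p = 0.911). The 95% intervals ran from -0.42 to 0.12 and from -0.41 to 0.36. With RLE scaling the T532M value was 0.05, so its sign was not fixed. Over all genes tested the median was -0.31 in both crosses, and that of the 7 members was -0.15 and -0.02. With RLE scaling the median over all genes was -0.23 in LoF and -0.24 in T532M controls.

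**Figure D1:**
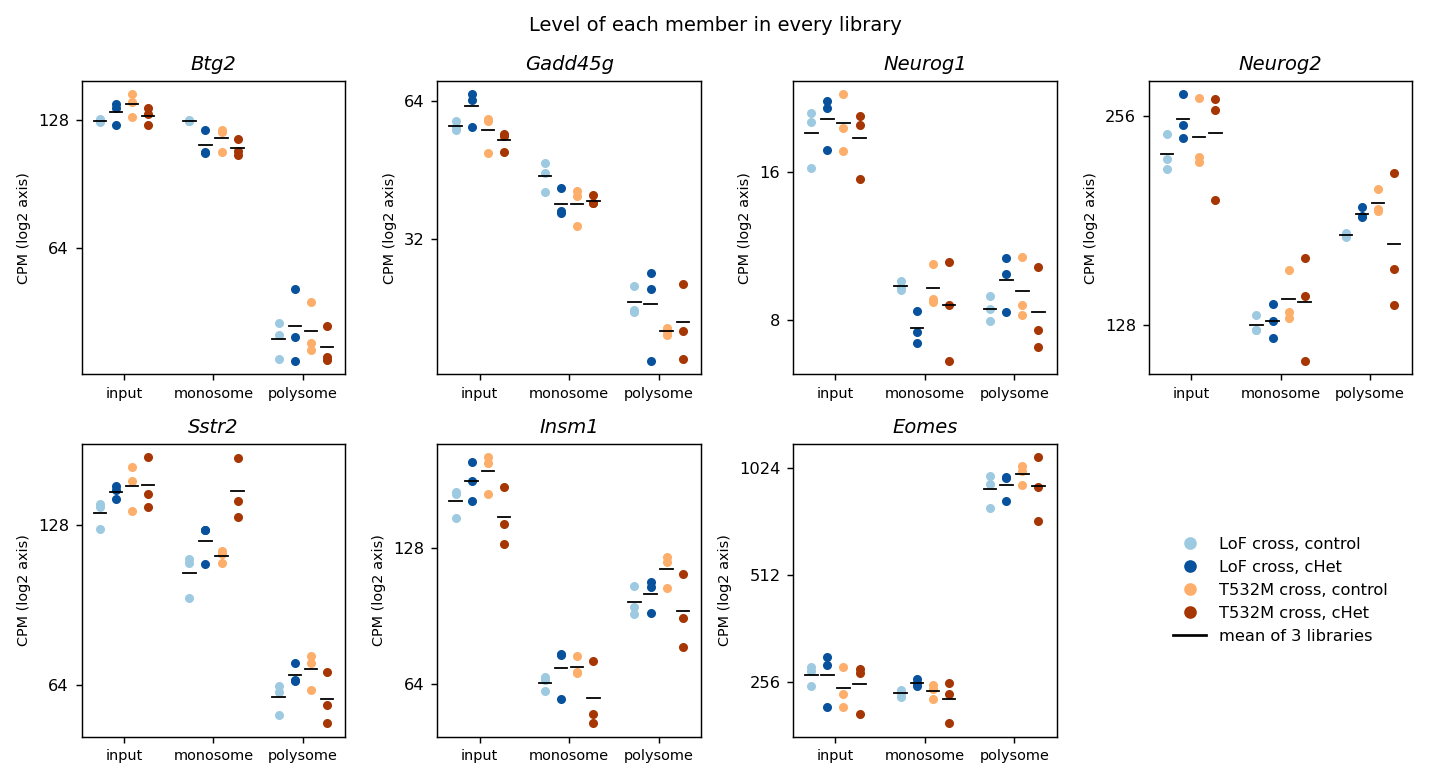
CPM of the 7 measured members on a log2 axis in input, monosome and polysome for each of the 36 libraries (points), coloured by cross and genotype, with black bars for the mean of 3 libraries. Eomes is highest in polysomes, Btg2, Gadd45g and Sstr2 are lowest there, and Sstr2 of T532M cHet stands above its controls in monosomes.

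Against input the order of fractions differed from member to member. Polysome levels were above input for Eomes and below it for the other members. In LoF controls 7 of 7 members passed, 1 higher and 6 lower, where 79.3% of genes passed, 36.5% higher and 42.8% lower. In T532M controls 6 of 7 passed, 1 higher and 5 lower, where 79% of genes passed, 36.6% higher and 42.4% lower. Groups did not overlap for 7 of 7 members in each cross, as for 81.9% and 79.5% of genes. The log2 fold change of Eomes was 1.74 ± 0.12 (SE) and 2.01 ± 0.16, with edgeR adjusted p = 1.34e-10 and 1.5e-09. Btg2 had -1.71 ± 0.12 and -1.78 ± 0.11, Gadd45g -1.28 ± 0.13 and -1.46 ± 0.12, and Sstr2 -1.15 ± 0.10 and -1.15 ± 0.12. Neurog1 had -1.19 ± 0.13 and -1.13 ± 0.18, and Insm1 had -0.74 ± 0.11 and -0.72 ± 0.15. Neurog2 fell by 0.39 on the log2 scale in LoF controls (edgeR adjusted p = 0.000599), and its value of -0.31 ± 0.17 in T532M controls did not pass (adjusted p = 0.0921). With the replicate block, which compares fractions of the same replicate number, Neurog2 passed in T532M controls at edgeR adjusted p = 0.0083. With it 7 of 7 members passed there.

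Monosome levels were at or below input for all 7 members. Of these, 5 passed in LoF controls and 6 in T532M controls, all of them lower, where 30.6% and 31% of genes passed as lower and 62.7% and 63.1% in either direction. Groups did not overlap for 6 of 7 members in each cross, as for 71.5% and 68.3% of genes. Insm1 was at 149, 169 and 170 CPM in LoF control input and at 197, 168 and 203 CPM in T532M control input, well above the monosome values given for it. Its log2 fold changes were -1.33 ± 0.11 (SE) and -1.44 ± 0.15, with edgeR adjusted p = 6.12e-09 and 1.61e-07, and stood at the 8.91 and 8.04 percentile of genes. Neurog1 was at 16.3, 20.2 and 21.1 CPM and at 19.6, 23 and 17.6 CPM in input, with monosome log2 fold changes of -1.03 and -1.11. Neurog2 was at 214, 222 and 241 CPM and at 220, 272 and 223 CPM in input, with log2 fold changes of -0.82 and -0.77.

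Sstr2 was at 139, 126 and 140 CPM and at 165, 136 and 155 CPM in input, with monosome log2 fold changes of -0.37 and -0.44. Gadd45g was at 56.1, 55.3 and 57.8 CPM and at 58.5, 57.9 and 49.3 CPM in input, with log2 fold changes of -0.36 and -0.53. The Gadd45g call in LoF controls was lost without control 2 or control 3, at edgeR adjusted p = 0.118 and 0.107. Eomes did not pass in either cross, with 275, 249 and 283 CPM and 218, 282 and 238 CPM in input and monosome log2 fold changes of -0.17 ± 0.12 (SE) and -0.02 ± 0.16. The Eomes difference in LoF controls passed without LoF cHet 1, at edgeR adjusted p = 0.048.

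Btg2 had nearly the same level in input as in monosomes of LoF controls, at 128, 127 and 129 CPM against the 127, 128 and 127 CPM given above, and its 95% interval ran from -0.25 to 0.25. In T532M controls its input was at 141, 147 and 130 CPM and the difference of -0.26 ± 0.11 (SE) passed at edgeR adjusted p = 0.0435. That call was lost without any 1 of 5 pools (3 controls, cHet 1 and cHet 2), with edgeR adjusted p between 0.0574 and 0.217, and with no filter on low counts (0.177). In monosomes relative to input, Insm1, Neurog1 and Neurog2 were thus the lowest members, and Btg2 and Eomes the nearest to input. Insm1 and Neurog2 were below input in both fractions and yet higher in polysomes than in monosomes.

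**Figure D2:**
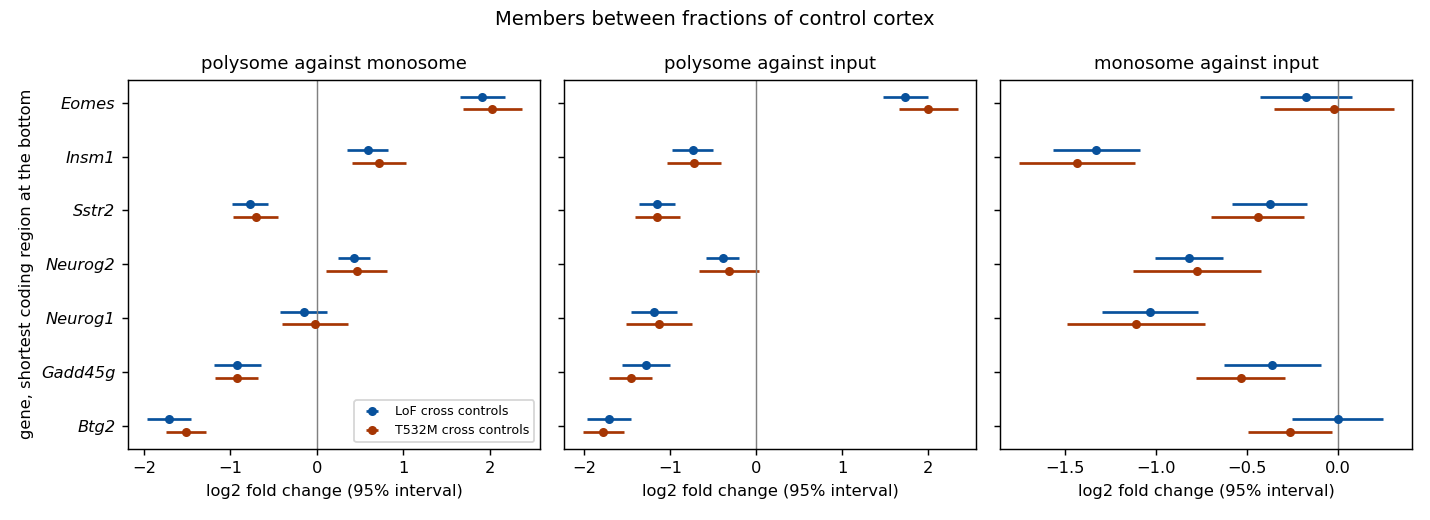
Log2 fold changes between fractions in control cortex for the 7 measured members, ordered by coding length, with 95% intervals from edgeR, LoF controls in blue and T532M controls in brown. Eomes is the member above 0 in polysome against input, at 1.74 and 2.01, and Insm1 is the lowest in monosome against input.

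The order of the members from monosome to polysome followed their coding lengths closely. Over the 7 members Spearman's rho between coding length and the polysome against monosome log2 fold change was 0.893 in both crosses, and over 13722 genes it was 0.639 in LoF and 0.635 in T532M controls. These are correlations across genes of the same libraries, and genes are not replicates. Sstr2 was the exception among the members: its -0.78 and -0.71 were below the medians of -0.23 and -0.27 for the 2037 genes with coding regions of over 900 and up to 1200 bases. Both values lay between the quartiles of that class, -1.13 and 0.69 in LoF and -1.17 and 0.73 in T532M controls. These length classes were set after values had been seen.

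The other 6 members were above the median of genes of like coding length in both crosses. Neurog2 was at 0.43 and 0.46, where the 1856 genes of over 600 and up to 900 coding bases had medians of -0.88 and -0.92 and upper quartiles of -0.10 and -0.09. Gadd45g, at -0.92 and -0.93, was above the upper quartiles of -1.11 and -1.04 for the 1544 genes of over 300 and up to 600 coding bases, and Btg2, at -1.71 and -1.51, was nearer to their median of -1.86. Insm1 was above medians of 0.35 and 0.29 in the class up to 1600 coding bases, and Eomes above medians of 0.88 and 0.87 in the class up to 2400. Both were below the upper quartiles of their classes, 1.39 and 1.38 for Insm1 and 2.01 and 2.04 for Eomes.

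Members of almost equal coding length still differed. The libraries of 1 genotype that carry the same number are set side by side here as 1 pool, which the labels do not state for the LoF cross or the T532M cross. On that reading Neurog2 had the higher polysome to monosome log2 ratio than Neurog1 in 6 of 6 control pools, by 0.34 to 0.72. In cHet pools the Neurog2 ratio was higher in 5 of 6, with differences from -0.08 to 0.58. Gadd45g had a higher ratio than Btg2 in 6 of 6 control pools, by 0.36 to 0.91, and in 6 of 6 cHet pools, by 0.46 to 0.88. The 3′ untranslated region of Btg2 has 2199 bases and that of Gadd45g 489, while those of Neurog2 and Neurog1 have 1111 and 720. Whether these lengths bear on the ratios was not tested.

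**Figure D3:**
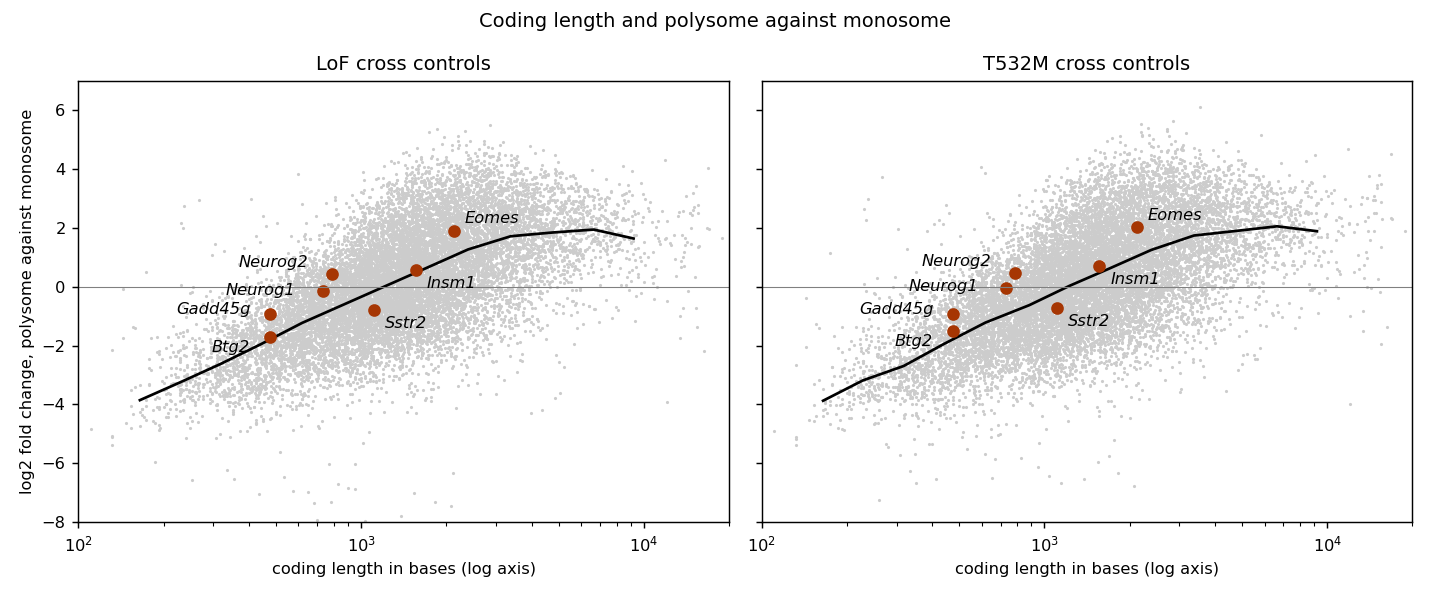
Log2 fold change of polysome against monosome against coding length in bases (log axis) for 13722 genes (grey), with the running median in black and the 7 measured members in brown, for LoF and T532M controls. The members rise from Btg2 and Gadd45g to Eomes along with the genes at large, and Sstr2 is the member below the median line.

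In cHet against control no member passed in any fraction of either cross. The counts were 0 of 7 members in LoF input, monosome and polysome, where 0%, 0.0108% and 0% of genes passed, and 0 of 7 in the same fractions of the T532M cross, where 0.00548%, 1.03% and 0% of genes passed. At an unadjusted p of 0.05 edgeR gave 0 members in LoF input, 1 in monosomes (Neurog1) and 0 in polysomes, where 10.8%, 4.2% and 3.23% of genes passed. In the T532M cross it gave 1 in input (Insm1), 1 in monosomes (Sstr2) and 0 in polysomes, where 10.7%, 11.8% and 7.92% of genes passed. DESeq2 gave 1 member, Sstr2 in T532M monosomes, and 0 elsewhere. Few genes of any kind passed after adjustment, so the zeros of the members were near the background. In whole tissue, fewer cells of a type and less RNA per cell cannot be told apart.

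Eomes, the marker of intermediate progenitors, was at 219, 286 and 301 CPM in the input of LoF cHet 1, 2 and 3 and at 209, 271 and 278 CPM in that of T532M cHet, overlapping the control values given above. Its log2 difference in input was 0.00 with a 95% interval of -0.26 to 0.25 in the LoF cross and 0.04 with an interval of -0.29 to 0.37 in the T532M cross. In polysomes the Eomes difference was 0.04 (-0.21 to 0.29) and -0.12 (-0.44 to 0.21). Neurog2 differed by 0.17 in LoF input (95% interval -0.02 to 0.36, edgeR adjusted p = 0.561), with 238, 248 and 275 CPM in cHet against 214, 222 and 241 CPM. In T532M polysomes Neurog2 was at 137, 154 and 212 CPM against 187, 201 and 188 CPM in controls, so the cHet pools lay on both sides of the controls.

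Sstr2 in T532M monosomes had the smallest adjusted p of the members. It was at 142, 133 and 171 CPM in monosomes of T532M cHet 1, 2 and 3 and at 113, 109 and 114 CPM in their controls. The groups did not overlap, as in 21.6% of genes of this comparison, and the log2 difference was 0.41 ± 0.12 (SE; 95% interval 0.15 to 0.66; edgeR adjusted p = 0.149). DESeq2 gave an adjusted p of 0.043, and edgeR with the replicate number as a block gave 0.0232, although numbers of cHet and control do not name shared animals. Over all alternatives its adjusted p ran from 0.0232 to 0.633, and without T532M cHet 1, the pool of that group with Ttr at 177 CPM, the difference was 0.44 (edgeR adjusted p = 0.294).

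In T532M polysomes Sstr2 was at 54.1, 58.8 and 67.8 CPM in cHet and 72.5, 62.5 and 70.5 CPM in controls, a log2 difference of -0.19 ± 0.12, and in input at 146, 139 and 172 CPM against 165, 136 and 155 CPM, a difference of 0.01 ± 0.12. Its polysome to monosome log2 ratio was -1.39, -1.18 and -1.33 in the T532M cHet pools and -0.64, -0.80 and -0.70 in the control pools. The change of that ratio was -0.59 ± 0.17 (SE; edgeR adjusted p = 0.392), and with pools as the replicate block the adjusted p was 0.1. In LoF monosomes Sstr2 was at 108, 125 and 125 CPM in cHet against 109, 93.3 and 110 CPM (0.20 ± 0.10, adjusted p = 1). In LoF input it was at 152, 143 and 149 CPM against 139, 126 and 140 CPM (0.13 ± 0.10, adjusted p = 0.772), and in LoF polysomes at 65.1, 65.5 and 70.3 CPM against 63.7, 62.2 and 56.3 CPM (0.14 ± 0.10, adjusted p = 1). The mean of Sstr2 was thus above control in monosomes of both crosses, neither past the threshold, and the difference of the effects, LoF minus T532M, was -0.21 ± 0.15 (edgeR adjusted p = 0.859).

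Neurog1 was at 8.34, 7.16 and 7.55 CPM in monosomes of LoF cHet and at 9.59, 9.31 and 9.19 CPM in controls, without overlap. Its log2 difference was -0.29 ± 0.13 (SE; edgeR adjusted p = 1), at 362 or more read pairs per library. Without the 3 LoF pools high in Ttr it was -0.34, a value that rests on 2 cHet pools and 1 control pool. In LoF polysomes Neurog1 was at 8.30, 9.88 and 10.7 CPM in cHet against 7.93, 8.94 and 8.39 CPM, a difference of 0.19 ± 0.13. With LoF libraries paired by number alone, the polysome to monosome log2 ratio of Neurog1 was -0.01, 0.47 and 0.50 in cHet. It was -0.27, -0.06 and -0.13 in controls. The change of the ratio was 0.48 ± 0.18 (edgeR adjusted p = 1), and in the T532M cross it was -0.02 ± 0.26 (adjusted p = 0.996). Groups did not overlap for 3 of 7 members in LoF monosomes (Neurog1, Btg2 and Eomes), against 10.5% of genes. They did not overlap for Sstr2 in LoF input, against 11.3% of genes, and for Neurog2 and Sstr2 in LoF polysomes, against 6.71%. In the T532M cross the groups overlapped for all 7 members in input and in polysomes, where 13.3% and 9.63% of genes did not overlap. In T532M monosomes they did not overlap for Sstr2 alone, against 21.6% of genes.

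Insm1 was at 130, 144 and 175 CPM in T532M cHet input and at 197, 168 and 203 CPM in controls, and the groups overlapped through cHet 3. Its log2 difference was -0.34 ± 0.15 (SE; edgeR adjusted p = 0.441), and -0.25 without T532M cHet 1, the pool high in Ttr. In monosomes Insm1 was at 52.5, 55.0 and 72.1 CPM against 67.9, 68.2 and 73.8 CPM and in polysomes at 89.8, 77.2 and 112 CPM against 122, 104 and 119 CPM, differences of -0.23 ± 0.15 and -0.31 ± 0.15. In LoF input Insm1 was at 162, 179 and 198 CPM in cHet against 149, 169 and 170 CPM, a difference of 0.15 ± 0.11. The LoF effect minus the T532M effect on Insm1 in input was 0.47 ± 0.19 (edgeR adjusted p = 0.185), and of 16 alternatives it passed in 1, without T532M cHet 3, at adjusted p = 0.0437.

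Of the members' remaining values, Neurog1 had 0.10 in LoF input and -0.10, -0.12 and -0.14 in T532M input, monosomes and polysomes. Neurog2 had 0.02 and 0.10 in LoF monosomes and polysomes and 0.02 and -0.01 in T532M input and monosomes. Eomes had 0.10 in LoF and -0.08 in T532M monosomes, and Insm1 had 0.11 and 0.06 in LoF monosomes and polysomes. Btg2 and Gadd45g gave differences between -0.20 and 0.14 over the 6 comparisons of cHet with control, and none had an unadjusted p under 0.05. Btg2 was at 121, 107 and 108 CPM in LoF cHet monosomes, below its 3 controls, and at 125, 132 and 137 CPM in T532M cHet input, overlapping its controls. Gadd45g was at 64.4, 56.3 and 66.2 CPM in LoF cHet input and 17.3, 24.8 and 26.9 CPM in LoF cHet polysomes, overlapping its controls in both. The changes of the genotype effect between fractions gave no call for any member either. The counts were 0 of 7 for polysome over input and over monosome in the LoF cross, where 0.0108% and 0% of genes passed, and 0 of 7 in the T532M cross, where 0% and 0.0603% passed. The 7 values ran from -0.16 to 0.09 over input and from -0.06 to 0.48 over monosome in LoF, and from -0.22 to 0.14 and from -0.59 to 0.04 in T532M. The unadjusted counts were 0 for polysome over input and 1 (Neurog1) for polysome over monosome in LoF, where 6.87% and 3.02% of genes passed. In T532M they were 0 and 1 (Sstr2), where 6.1% and 6.85% of genes passed, and DESeq2 gave 0 in all 4. Between the crosses 0 of 7 members differed in input, monosome and polysome, where 0.0105%, 0% and 0% of genes did. The differences, LoF minus T532M, ran from -0.06 to 0.47, from -0.23 to 0.33 and from -0.07 to 0.37. Unadjusted, 1 passed in input (Insm1), 0 in monosomes and 1 in polysomes (Sstr2, 0.33 ± 0.15), where 15.9%, 6.69% and 5.59% of genes did, and DESeq2 gave 0 in all 3. The controls of the crosses also differ in Cre and in the lox allele, which cannot be told apart from the alleles here.

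**Figure D4:**
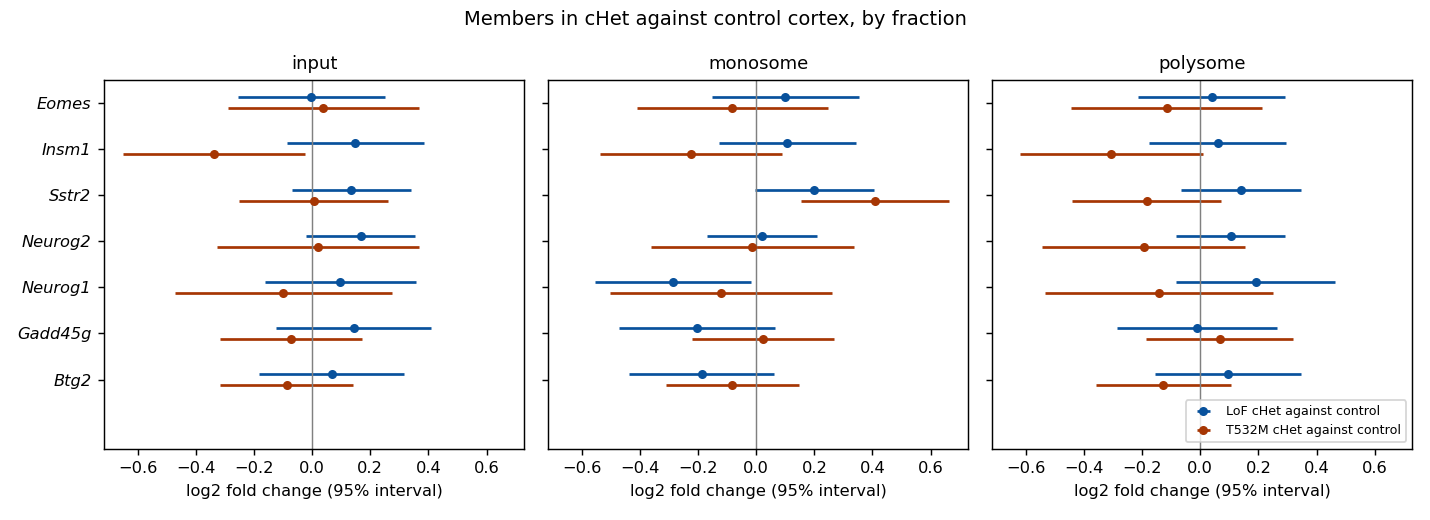
Log2 fold change of cHet against control in input, monosome and polysome for the 7 measured members, with 95% intervals from edgeR, LoF in blue and T532M in brown. All differences lie between -0.34 and 0.41, and the Sstr2 point of T532M monosomes is the farthest from 0.

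Lists of markers of other cells differed between pools, and no gene of these lists passed between cHet and control in any fraction. The 9 genes of choroid plexus and hem (Ttr, Rspo3, Wnt8b and others) were all below control in LoF input and all above it in T532M input, with medians of -0.89 and 2.15 on the log2 scale. Their summed level was 14.2 to 64.2 CPM in LoF cHet and 29.7 to 219.8 CPM in LoF control input, and 12.4 to 240.5 CPM in T532M cHet and 17.1 to 18.8 CPM in T532M control input. The T532M cHet pools thus lay on both sides of their controls in this sum, and Ttr was at 177, 2.25 and 0 CPM in the input of T532M cHet 1, 2 and 3. The 8 measured markers of excitatory neurons were all below control in T532M polysomes (median -0.42), at summed levels of 4208 to 5788 CPM in cHet and 5273 to 7809 CPM in controls. The 5 markers of meninges were all above control in T532M input, monosomes and polysomes, with medians of 0.54, 0.41 and 0.88, and their sum overlapped between the groups in each (47.0 to 93.6 CPM in cHet and 10.5 to 103 CPM in control input). Of 9 markers of interneurons and ventral forebrain, 8 were below control in LoF input, 9 in monosomes and 8 in polysomes, with medians of -0.42, -0.29 and -0.27. Their sum was 222 to 361 CPM in LoF cHet monosomes and 286 to 447 CPM in controls. The 6 erythroid genes were all below control in LoF monosomes (median -0.64), at summed levels of 221 to 468 CPM in cHet, below all 3 controls, of which the highest was at 553 CPM. In T532M polysomes the 6 erythroid genes were all above control (median 0.32), at summed levels of 44.9 to 87.5 CPM in cHet and 47.8 to 61.6 CPM in controls. In LoF polysomes the 5 markers of Cajal-Retzius cells were all below control (median -0.22), and the 4 endothelial markers were all above it there and in LoF input (0.22 and 0.13), as in T532M polysomes (0.23). The 5 microglia markers, the 8 measured radial glia markers and the 6 dorsal cortex markers were not all on 1 side of control in any fraction. The part of these lists in the members' values was not tested.

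Other genes of the neurogenic pathway showed where the members stand among their neighbours. Of 32 such genes (Notch ligands and effectors, bHLH factors, upstream factors, cofactors and targets), 31 were tested, and Sox2 was not, as it is listed at 0. Like Neurod1, Sox2 lies inside another gene span of the same strand, so its zero is no level. In polysome against monosome 13 of the 31 passed as higher and 15 as lower in LoF controls, with a median of 0.10. In T532M controls 13 passed as higher and 13 as lower, with a median of 0.17. Tbr1, the deep-layer neuron factor that follows Eomes in the lineage, had 1347 CPM in polysomes and 155 CPM in monosomes of LoF controls (log2 fold change 3.12 ± 0.13). Cdkn1c, an inhibitor of the cell cycle, was higher by 2.54 ± 0.13 in LoF and 2.49 ± 0.13 in T532M controls, and Sox9, a radial glia factor, by 2.19 ± 0.12 and 2.32 ± 0.15. Btg1, the paralog of Btg2, was lower by a log2 fold change of -2.31 in both, and Mfng, which modifies Notch, had -2.84 ± 0.12 in T532M controls.

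Against input, 10 of the 31 pathway genes passed as higher in polysomes and 17 as lower in each cross, with medians of -0.53 and -0.58. In monosomes 6 passed as higher in each cross, and 12 passed as lower in LoF and 14 in T532M controls. In cHet against control 0 of 31 passed in all 3 LoF fractions and in T532M input and polysomes. In T532M monosomes 2 of 31 passed as higher, where 0.976% of genes did, and 0 passed as lower, where 0.0548% of genes did. Rcor2, a partner of the histone demethylase Lsd1 in neural progenitors, was at 239, 245 and 325 CPM in T532M cHet monosomes and 113, 131 and 134 CPM in controls (1.10 ± 0.15, edgeR adjusted p = 0.00206). Btg1 was at 327, 311 and 348 CPM against 240, 252 and 224 CPM (0.46 ± 0.09, edgeR adjusted p = 0.0143). The Rcor2 call in monosomes was lost without T532M control 3, at edgeR adjusted p = 0.0501. The Btg1 call was lost without any 1 of 5 pools (3 cHet, control 1 and control 3), at edgeR adjusted p from 0.0795 to 0.225, and with no filter on low counts (0.129). DESeq2 kept it (adjusted p = 1.14e-06), as did edgeR with RLE scaling (adjusted p = 0.0347), on the fraction alone (0.026) and with the replicate number as a block (0.0161). Without control 2 it was also kept, at edgeR adjusted p = 0.0192. Rcor2 was also the 1 gene of 31 that passed for a lower polysome over monosome ratio in T532M cHet, where 0.0603% of genes passed as lower. Its change was -1.21 ± 0.22 on the log2 scale (edgeR adjusted p = 0.0486). Of the 31 values 20 were negative, with a median of -0.11. That call was lost with any 1 of the 6 T532M pools left out, at edgeR adjusted p from 0.0557 to 0.549, and with RLE scaling (0.119). It was kept with DESeq2 (adjusted p = 0.000444), and in edgeR with no filter (adjusted p = 0.00552) and with pools as the replicate block (0.00332).

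The genes most like Eomes and Neurog2 across pools were taken by the Pearson correlation of log2 CPM over 36 libraries, after the mean of each cross and fraction was subtracted. Correlations were computed for 12393 genes with a mean of at least 2 CPM, and Gm, Rik and clone names were then left out. For Eomes the highest were Pax6 (r = 0.83), Rai14 (0.83), Cecr2 (0.82), Hunk (0.81) and Rcbtb2 (0.78). For Neurog2 they were Tfap2c (0.89), Efnb1 (0.84), Sfrp1 (0.83), Pax6 (0.82) and Otx1 (0.81). Pax6, the radial glia factor upstream of both, was on both lists. Among the members, Eomes and Neurog2 had r = 0.78, Neurog1 and Btg2 0.77, Neurog1 and Neurog2 0.74, and Btg2 and Gadd45g 0.68. Eomes with Gadd45g (0.01), Eomes with Btg2 (0.09) and Btg2 with Sstr2 (-0.02) were near 0. These values describe 36 libraries, which are not independent where fractions come from the same lysate.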

How the data were processed

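The 8 members, the pathway genes and the marker lists were chosen with earlier results of these data known. The authors' deposited counts are read pairs per gene, counted per the file headers with featureCounts version 2.0.3 with the strand setting 2 (reverse), introns and exons of a gene together, on GENCODE M25 of GRCm38. STAR 2.7.11a is named as a tool in the submitters' processing notes, beside DESeq2 1.34.0 and FastQC 0.11.7. The sources used here do not say which gradient fractions were joined. The authors' deposited tables hold log2 fold changes, p-values and a normalized signal per library, of which only the members' fold changes and p-values were read.

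Counts were tested in R 4.3.3 with edgeR 4.0.16 (TMM, filterByExpr, quasi-likelihood test, Benjamini-Hochberg over all genes tested, adjusted p under 0.05). A fit per cross, with 18 libraries in 6 groups, left 18556 (LoF) and 18243 (T532M) genes, and a fit of all 36 libraries (19121 genes) tested differences between crosses. By the rule for named genes the members were taken up in each comparison, by value or within a range, and in cHet against control, where none passed, with library values at least for the 2 with the smallest p. Neurod1 had no test. Alternatives were DESeq2 1.42.0, RLE scaling, no filter, each pool left out, replicate blocks, single fractions and leaving out 3 LoF pools high in Ttr. The procedure was also run on simulated data, and no result given here rests on that run. Transcript features are from GENCODE M21, preferring the principal transcript and then the longest coding region.

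Replicates differed beyond sampling noise in all 36 pairs of libraries of 1 group (chi-square per degree of freedom 13.7 to 125). The pairing of fractions by replicate number was checked by the correlation of deviations from group means: in the T532M cross 18 of 18 same-number pairs of fractions were over 0.1 (0.101 to 0.413), so the numbers were taken to name pools. In the LoF cross 13 of 18 were (0.064 to 0.312), so the pairing was not taken as established there, and LoF pools are libraries put together by number alone. Of 36 pairs of fractions with other numbers, 0 were over 0.1 in each cross. The highest was 0.0639 in LoF and 0.0899 in T532M. Deviations from a mean of 3 libraries sum to 0, so these pairs are not an independent contrast. Pairs of cHet and control in 1 fraction share no embryos. Of these in LoF, 6 of 18 with other numbers (up to 0.277) and 0 of 9 with the same number were over 0.1. In T532M 1 of 18 (up to 0.156) and 3 of 9 (up to 0.172) were. The cut at 0.1 therefore does not show that fractions share a pool.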

Additional observations from a re-analysis of the deposited data

How the results depend on the processing

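Over 738 alternative values for single members, 10 lost a call, 6 gained one and 10 changed sign. Sign changes were all in values that did not pass: Btg2 in LoF monosome against input (0.00984 without the filter, and 0.00334 and 0.00452 without LoF control 1 or 3, lowest -0.0501 with a pool left out), Eomes in T532M monosome against input (0.000124 without the filter, 0.0637 without T532M control 2, lowest -0.064), Gadd45g in the LoF change of polysome over input (0.00917 without LoF cHet 1, lowest -0.28), and Neurog1 in T532M polysome against monosome (0.0429 with DESeq2, 0.049 with RLE scaling, and 0.00862 and 0.0246 without T532M control 1 or 3, lowest -0.056). Of 219 alternative counts of members called, 3 differed from the reported count by over 1.5 times. They were 1 in place of 0 for T532M monosomes with DESeq2 and with the replicate block by number, both Sstr2, and 1 in place of 0 for the difference between crosses in input without T532M cHet 3, Insm1 (range 0 to 1 over the pools left out). The cause was not tested.

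In the LoF cross, where the pairing of fractions by number was not established, the replicate block left 6, 7 and 5 members called in polysome against monosome, polysome against input and monosome against input. The T532M counts with the pool as replicate block were 6, 7 and 6. With the replicate block no other member call changed.

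Counts over all genes in the genotype comparisons moved by far more. T532M monosomes gave 188 genes, 7 to 636 with a pool left out and 130 to 876 under the other settings. T532M input gave 1 gene, 0 to 543 and 0 to 157, and T532M polysomes 0, 0 to 139 and 0 to 58. LoF input gave 0, 0 to 15 and 0 to 967, LoF monosomes 2, 1 to 180 and 0 to 940, and LoF polysomes 0, 0 to 12 and 0 to 70. The 940 and the 70 came without the 3 LoF pools high in Ttr, which leaves 1 control pool, assumed to vary like the other groups. Changes of polysome over input and over monosome gave 2 (0 to 18, 0 to 193) and 0 (0 to 0, 0 to 203) in LoF, and 11 (0 to 0, 0 to 83) for the latter in T532M. Differences between crosses gave 2 (1 to 1697, 0 to 1163) in input, 0 (0 to 43, 0 to 48) in monosomes and 0 (0 to 2, 0 to 51) in polysomes. Neurog1, at 200 to 1215 read pairs per library, had the fewest reads of the measured members.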

Other observations

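The authors' deposited tables give log2 fold changes of cHet against control for the 7 measured members, with NA for Neurod1 in the LoF table. Their 28 monosome and polysome values lay within 0.051 of the effect in the fraction minus the effect in input as fitted here, and up to 0.383 from the effect within the fraction. The deposited monosome values below are therefore not the same contrast as the differences within monosomes given above. In the authors' deposited tables the lowest adjusted p of any member was 0.212, for Neurog2 in LoF input (log2 fold change 0.19, p = 0.0136). In the authors' deposited table for T532M, Sstr2 had 0.41 in monosomes (p = 0.0204, adjusted p = 0.396). In the authors' deposited table for LoF, Neurog1 had -0.43 (p = 0.0232) and Gadd45g -0.39 (p = 0.0304) in monosomes, both with an adjusted p of 1.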
